A study of Rattus norvegicus with 2 samples.

Results

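The gp130 cytokines signal through a shared receptor chain, gp130, which the gene *Il6st* encodes. Described here are 9 genes of this family, taken by symbol from the 25399 genes counted: 3 ligands, *Cntf* (ciliary neurotrophic factor), *Lif* (leukaemia inhibitory factor) and *Clcf1* (cardiotrophin-like cytokine factor 1), and 6 receptor chains, *Il6st*, *Lifr*, *Osmr*, *Cntfr*, *Il6r* and *Il11ra1*. Their transcripts were counted in single cells of mixed primary cultures from the rat optic nerve, as the title of the series and the study's methods describe them, in 1 library from wild type (WT) rats and 1 from Nuc1 rats, which carry a spontaneous mutation of *Cryba1*, the gene of βA3/A1-crystallin, on the Sprague Dawley background. Both libraries are labelled postnatal day 7. How long the cells were grown is not given in the sources used here. How many animals were pooled is not given in the sources used here.

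Each ligand of the family brings together its own set of chains. IL-6 and IL-11 bind first to IL-6Rα or IL-11Rα, which do not signal themselves, and then to gp130. LIF acts through the LIF receptor chain with gp130, oncostatin M through the OSM receptor chain or the LIF receptor chain with gp130, and CNTF first binds CNTFRα, a chain held in the membrane by a lipid anchor, and then the LIF receptor chain and gp130. CLCF1 uses the same receptor as CNTF. Janus kinases on the inner side then phosphorylate STAT3, whose targets include the inhibitor *Socs3*. In the optic nerve CNTF is best known as a survival factor for glia and retinal ganglion cells, and LIF and CNTF drive cultured precursor cells toward astrocytes.

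Counts are unique molecular identifiers (UMIs), 1 for each captured transcript molecule. Of the barcodes, 1963 WT cells (median 14050 UMIs) and 1782 Nuc1 cells (median 16577.5 UMIs) passed the filters, and the libraries shared 2 barcodes. A level is the summed UMIs of a gene divided by all UMIs of the same cells and scaled to 1000000 (CPM), with 95% exact Poisson intervals. Intervals in all results cover counting error only. With 1 library per genotype there is no replicate and no test, and a difference between the libraries cannot be told apart from one between the genotypes. *Cryba1* had 0 UMIs in both libraries, so the genotype could not be checked on it. UMIs of the male genes *Eif2s3y* or *Kdm5d* were found in 1 WT cell and in 413 Nuc1 cells (23.2%). The libraries thus differed in RNA of male cells, and a difference by sex cannot be told apart from one by genotype. Values without those Nuc1 cells were computed as an alternative, which can leave male cells with no such UMI.

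The cells fell into 10 clusters. Of these, 5 clusters with high *Col1a1* are called collagen-rich (1745 WT and 1265 Nuc1 cells). *Gfap*, *Fabp7* and *Aqp4* led the astrocyte-like cells (108 and 359), and genes of motile cilia led the ciliated cells (14 and 95). An unnamed cluster was led by *Ttr* and *Gldn* (22 and 31 cells), and is called the *Ttr* and *Gldn* cluster. *Bcas1* and *Olig1* were among the genes that led the oligodendrocyte-like cells (52 and 10), and *Pf4*, *Tyrobp* and *Lyz2* the macrophage-like cells (22 and 22). The last group was shallow, with a median of 3434 UMIs, and held 227820 WT and 74559 Nuc1 UMIs in all, so that levels there rest on few UMIs. Astrocyte-like cells were deeper (median 25874 UMIs in WT and 24305 in Nuc1) than collagen-rich cells (13721 and 15166), so shares of cells with a UMI were taken after each cell was thinned to 5000 UMIs. Levels of different genes are not compared, since 3′ counts depend on how well the end of each gene is annotated.

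*Cntf* was the member with the sharpest pattern, so the 250 bases before its RefSeq start are shown here. They lie at chr1:219314536-219314785 on the minus strand of GRCr8, with AACAAT, a core word of SOX factors, in capitals.

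*Cntf*: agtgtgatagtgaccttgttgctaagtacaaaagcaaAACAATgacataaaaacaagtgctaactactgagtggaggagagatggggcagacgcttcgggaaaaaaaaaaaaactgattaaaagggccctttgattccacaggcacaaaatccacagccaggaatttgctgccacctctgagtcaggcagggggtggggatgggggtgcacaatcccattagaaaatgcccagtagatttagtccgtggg

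The upstream sequences of 5 of the 9 members were found in RefSeq, and *Cntfr*, *Il11ra1*, *Lif* and *Clcf1* had none in the table used. AACAAT, searched on both strands, occurred in 10.3% of the 33469 rat upstream sequences of this length. The STAT word TTCNNNGAA occurred in none of the 5, and in 7.67% of all. Another word, ACAAAG, again read on both strands, occurred in the sequence of *Lifr*, and in 16.3% of all. These matches describe the letters only.

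The ligand *Cntf* stood highest in astrocyte-like cells, the *Ttr* and *Gldn* cluster and ciliated cells. In WT its level was 120.5 CPM in astrocyte-like cells (340 UMIs, interval 108.1 to 134.1), 102.3 CPM in the *Ttr* and *Gldn* cluster (48 UMIs), 68.7 CPM in ciliated cells (27 UMIs) and 1.61 CPM in collagen-rich cells (47 UMIs). In Nuc1 it was 91.1 CPM in astrocyte-like cells (839 UMIs, interval 85.1 to 97.5), 133.4 in the *Ttr* and *Gldn* cluster (84 UMIs), 43.8 in ciliated cells (86 UMIs) and 2.55 in collagen-rich cells (58 UMIs). The level in astrocyte-like cells was 74.8-fold that in collagen-rich cells in WT (interval 55.0 to 103.8) and 35.7-fold in Nuc1 (27.3 to 47.4). Oligodendrocyte-like cells, which CNTF is known to act on, held 4 *Cntf* UMIs in WT and 0 in Nuc1, where 28.1 CPM would have been needed to reach 3 UMIs. The *Ttr* and *Gldn* cluster also held *Col1a1*, and without its cells rich in fibroblast markers *Cntf* was 50.9 CPM in the 8 WT cells left and 157.7 in the 15 Nuc1 cells.

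Astrocyte-like cells were 5.50% of the WT cells and gave 72.5% of the *Cntf* UMIs, and in Nuc1 they were 20.1% of the cells and gave 78.6%. Over all cells kept, *Cntf* stood at 13.8 CPM in WT and 30.8 in Nuc1, so the whole library moved the opposite way to the astrocyte-like cells within it. After thinning, 45.8% of WT astrocyte-like cells held a *Cntf* UMI (interval 36.1% to 55.7%), and so did 31.4% of Nuc1 ones (26.6% to 36.5%), against 73.1% and 65.7% without thinning. Collagen-rich cells gave 0.694% and 0.796% after thinning, and 2.64% and 4.11% without. *Gfap* in collagen-rich cells was 0.0959% of its astrocyte-like level in WT and 0.312% in Nuc1, while *Cntf* there was 1.34% and 2.80%. The 9 listed astrocyte markers summed there to 684.0 CPM in WT and 801.2 in Nuc1, beside 41191 and 51534 in astrocyte-like cells. The part of RNA from astrocyte-like cells in the *Cntf* of collagen-rich cells was not tested.

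**Figure D1:**
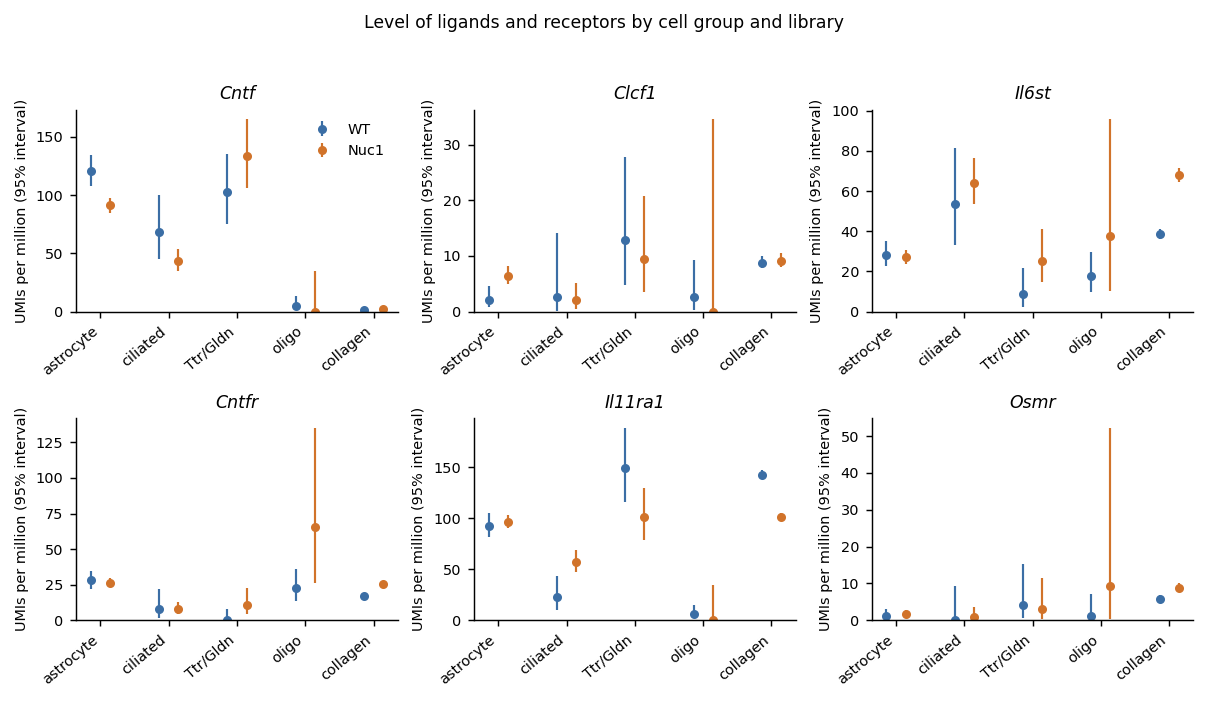
CPM (vertical axis, from 0) of the ligands *Cntf* and *Clcf1* and the receptor chains *Il6st*, *Cntfr*, *Il11ra1* and *Osmr* in 5 cell groups (horizontal axis), with WT in blue and Nuc1 in orange. Each point is 1 library's sum over the cells of a group and its bar the 95% exact Poisson interval; *Cntf* is near 0 in collagen-rich cells, where *Il11ra1* reaches 142.8 in WT, and the bars of the 10 Nuc1 oligodendrocyte-like cells are wide.

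*Cntf* UMIs were spread unevenly over astrocyte-like cells. In WT 29 of 108 cells had none, 32 had 1 or 2 and 47 had 3 or more, with a highest of 18 in 1 cell. In Nuc1 123 of 359 cells had none, 123 had 1 or 2 and 113 had 3 or more, with a highest of 38. The 11 WT cells with the most gave 37.6% of the UMIs and the 36 such Nuc1 cells 42.0%. *Zfp91*, an E3 ubiquitin ligase gene that lies next to *Cntf* in RefSeq, had a narrower range over the groups, from 118.5 to 274.9 CPM in WT and from 107.3 to 243.5 in Nuc1.

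*Clcf1*, the other ligand that uses the CNTF receptor, had a different distribution. It stood at 8.81 CPM in WT collagen-rich cells (257 UMIs, interval 7.77 to 9.96) and 9.16 in Nuc1 ones (208 UMIs, 7.96 to 10.5). Astrocyte-like cells had 2.13 CPM in WT (6 UMIs, 0.781 to 4.63) and 6.41 in Nuc1 (59 UMIs, 4.88 to 8.27). The *Ttr* and *Gldn* cluster held 6 UMIs in each library, 12.8 CPM in WT and 9.53 in Nuc1, and its intervals overlapped those of the collagen-rich cells. *Clcf1* was thus lower in astrocyte-like than in collagen-rich cells in both libraries, by 2.05 on the log2 scale in WT (interval of the log2 ratio -3.51 to -0.91) and by 0.52 in Nuc1 (-0.96 to -0.09).

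*Lif* was hardly captured. It had 11 UMIs in WT, 10 of them in collagen-rich cells, and 4 in Nuc1, all in collagen-rich cells. Astrocyte-like cells held 1 UMI in WT and 0 in Nuc1, which allows up to 0.326 CPM, so a level of *Lif* in glia was not detectable at this depth.

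The shared chain *Il6st* was found in every cell group. In WT its level was 53.5 CPM in ciliated cells (interval 33.1 to 81.7), 38.6 in collagen-rich cells (36.4 to 40.9), 28.4 in astrocyte-like cells (22.5 to 35.3), 17.8 in oligodendrocyte-like cells (9.73 to 29.9) and 8.52 in the *Ttr* and *Gldn* cluster (2.32 to 21.8). In Nuc1 it was 68.1 CPM in collagen-rich cells (64.7 to 71.6), 64.2 in ciliated cells (53.5 to 76.5), 27.0 in astrocyte-like cells (23.8 to 30.6) and 25.4 in the *Ttr* and *Gldn* cluster (14.5 to 41.3). Ciliated and collagen-rich cells headed the order in both libraries and did not differ beyond counting error. Astrocyte-like cells were below collagen-rich cells, by 0.44 on the log2 scale in WT (interval of the log2 ratio of collagen-rich over astrocyte-like 0.12 to 0.79) and by 1.33 in Nuc1 (1.14 to 1.53). Macrophage-like cells had 6 UMIs in WT, 5 of them in 1 cell, and 1 in Nuc1.

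*Cntfr*, the chain that gives specificity for CNTF, was present both in the cells with *Cntf* and in those without. Its WT levels were 28.0 CPM in astrocyte-like cells (79 UMIs, interval 22.2 to 34.9), 22.9 in oligodendrocyte-like cells (18 UMIs, 13.6 to 36.2), 17.2 in collagen-rich cells (503 UMIs, 15.8 to 18.8) and 7.64 in ciliated cells (3 UMIs). Its Nuc1 levels were 26.3 CPM in astrocyte-like cells (242 UMIs, 23.1 to 29.8), 25.3 in collagen-rich cells (574 UMIs, 23.3 to 27.4), 11.1 in the *Ttr* and *Gldn* cluster (7 UMIs) and 7.65 in ciliated cells (15 UMIs). Oligodendrocyte-like cells of Nuc1 stood at 65.5 CPM, but on 7 UMIs from 3 of 10 cells, 5 of them in 1 cell. In WT *Cntfr* was 1.62-fold higher in astrocyte-like than in collagen-rich cells (interval 1.26 to 2.06), and in Nuc1 the ratio was 1.04 (0.891 to 1.21). Thinned shares were 10.3% and 13.0% of astrocyte-like cells in WT and Nuc1, and 7.69% and 13.4% of collagen-rich cells. The *Ttr* and *Gldn* cluster, rich in *Cntf*, held 0 *Cntfr* UMIs in WT, which allows up to 6.39 CPM.

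*Il11ra1*, the IL-11 receptor chain, was high in the sum over collagen-rich cells, but not in each of their clusters. In WT it reached 142.8 CPM there (4166 UMIs, interval 138.5 to 147.2), 149.2 in the *Ttr* and *Gldn* cluster (116.3 to 188.5), 92.9 in astrocyte-like cells (82.0 to 104.8), 22.9 in ciliated cells (9 UMIs) and 6.36 in oligodendrocyte-like cells (5 UMIs). In Nuc1 the values were 101.0 CPM in collagen-rich cells (2294 UMIs, 96.9 to 105.2), 101.6 in the *Ttr* and *Gldn* cluster (78.3 to 129.8), 96.2 in astrocyte-like cells (90.0 to 102.8) and 57.1 in ciliated cells (47.0 to 68.7). Summed collagen-rich cells and the *Ttr* and *Gldn* cluster did not differ beyond counting error in either library. The collagen-rich clusters ran from 71.9 to 208.8 CPM in WT and from 50.2 to 164.8 in Nuc1. The cluster led by *Inmt* and *Cyp26b1* (71.9 and 50.2) and the dividing cells (74.4 and 69.1) were below astrocyte-like cells in both libraries, with overlapping intervals in WT. In Nuc1 the cluster led by *Actg2* and *Penk* was also below, at 84.2 CPM, with overlapping intervals. Oligodendrocyte-like cells had the lowest values, with 0 UMIs in Nuc1, which allows up to 28.1 CPM. *Col1a1* in astrocyte-like cells was 4.63% of its collagen-rich level in WT and 5.50% in Nuc1, against 65.0% and 95.3% for *Il11ra1*, 162.4% and 104.0% for *Cntfr* and 73.5% and 39.7% for *Il6st*.

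The other chains were rarer. *Osmr*, a chain of the oncostatin M receptor, was found mostly in collagen-rich cells. These were 88.9% of the cells in WT and gave 171 of 177 UMIs (5.86 CPM, interval 5.02 to 6.81). They were 71.0% in Nuc1 and gave 199 of 219 *Osmr* UMIs (8.76, 7.59 to 10.1). Astrocyte-like cells had 3 UMIs of it in WT (1.06 CPM) and 15 in Nuc1 (1.63 CPM). In the *Ttr* and *Gldn* cluster 2 UMIs in each library gave 4.26 and 3.18 CPM, and 1 UMI gave 9.36 CPM in Nuc1 oligodendrocyte-like cells, so these groups could not be told from collagen-rich cells. *Lifr*, needed for LIF and CNTF alike, stood in collagen-rich cells at 1.95 CPM in WT (57 UMIs, 1.48 to 2.53) and 4.45 in Nuc1 (101 UMIs, 3.62 to 5.40), and in astrocyte-like cells at 3.19 (9 UMIs, 1.46 to 6.06) and 1.19 (11 UMIs, 0.596 to 2.14). Ciliated, oligodendrocyte-like and macrophage-like cells held 0 *Lifr* UMIs in both libraries, which allows at most 1.53 CPM in Nuc1 ciliated cells and much higher values in the smaller groups. *Il6r*, the IL-6 receptor chain, had 42 UMIs in WT and 60 in Nuc1, with 27 and 33 in collagen-rich cells and 10 and 17 in astrocyte-like cells. Its WT level was lower in collagen-rich cells, at 0.926 CPM (interval 0.610 to 1.35), than in astrocyte-like cells, at 3.55 (1.70 to 6.52). In Nuc1 these levels were 1.45 and 1.85 CPM, with overlapping intervals. In Nuc1 ciliated cells it stood at 4.08 CPM (8 UMIs, 1.76 to 8.04).

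**Figure D2:**
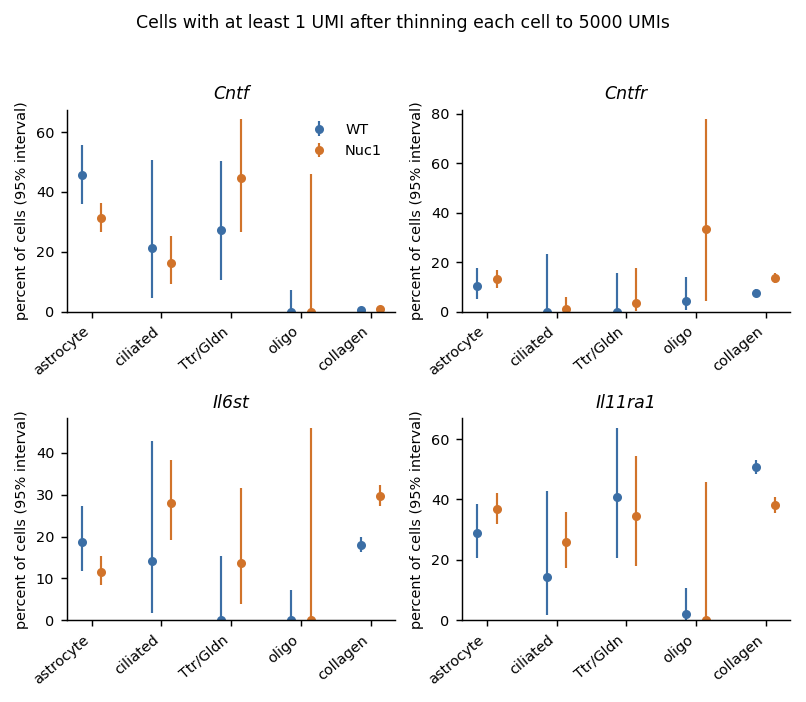
Percent of cells with at least 1 UMI (vertical axis, from 0) of *Cntf*, *Cntfr*, *Il6st* and *Il11ra1* in 5 cell groups (horizontal axis) after each cell was thinned to 5000 UMIs, with WT in blue, Nuc1 in orange and 95% exact binomial intervals. *Cntf* lies at 45.8% and 31.4% in astrocyte-like cells and under 1% in collagen-rich cells, while *Il11ra1* lies at 50.8% and 38.2% in collagen-rich cells.

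Apart from the IL-11 receptor, few cells showed UMIs of every chain of a receptor. *Il6st* and *Il11ra1* were found together in 37.8% of WT and 44.9% of Nuc1 collagen-rich cells and in 39.8% and 35.4% of astrocyte-like cells, and after thinning in 9.49%, 11.7%, 5.61% and 3.95%. *Il6st*, *Lifr* and *Cntfr*, the CNTF receptor, were found together in 8 of 1745 WT and 23 of 1265 Nuc1 collagen-rich cells and in 2 of 108 and 4 of 359 astrocyte-like cells. These were 0.458% and 1.82% of collagen-rich cells, beside 0.292% and 1.44% from the product of the separate shares. In astrocyte-like cells they were 1.85% and 1.11%, beside 1.58% and 0.493%. After thinning, no astrocyte-like cell held all of these chains, and only 4 WT and 1 Nuc1 ones held a *Lifr* UMI. Joint shares are limited by capture of the rarest chain, so they do not show how many cells carry a whole receptor. *Il6st* with *Osmr* was seen in 4.81% and 8.85% of collagen-rich cells, and after thinning in 0.636% and 1.67%. The product of the separate shares before thinning was 3.89% and 7.96%. UMIs of the ligand *Cntf* and its receptor chain *Cntfr* were found in the same cell in 33.3% (WT) and 31.2% (Nuc1) of the astrocyte-like cells, close to the 31.8% and 28.0% that the product of the separate shares gives, and after thinning in 4.67% and 5.08%.

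Among the genes tested for a pattern like that of each member, by Pearson's r of log2(CPM + 5) over 16 points (8 clusters in each library), *Lrrn2*, *Nim1k* and *Map2* were most like *Cntf* (r = 0.99, 0.99 and 0.98). *Pdgfra*, *Antxr2* and *Sned1* were most like *Il6st* (0.92, 0.91 and 0.90), *Plekha4* and *Ppp2r5a* among those most like *Cntfr* (0.94 and 0.89), and *Podxl2*, *Zc3h6* and *Ltbp3* most like *Il11ra1* (0.89, 0.89 and 0.86). *Zpbp2*, *Ddx17* and *Trpm7* came nearest to *Osmr* (0.93, 0.91 and 0.91), and *Zdhhc18*, *Urod* and *Glyctk* to *Clcf1* (0.90, 0.89 and 0.89). For *Lifr* they were *Adora2b*, *Elovl5* and *Il6st* (0.92, 0.85 and 0.85), and for *Il6r* *Pctp*, *Hlx* and *Pstpip2* (0.92, 0.90 and 0.89). These are descriptions over 10411 genes, and the points share libraries and depth. Ciliated and oligodendrocyte-like clusters, with under 20 cells in a library, were left out. In the collagen-rich clusters *Lifr* ran from 0.608 to 6.28 CPM and *Il6r* from 0 to 2.15, beside the 5 CPM added. The WT macrophage-like level of *Il6r*, 8.78 CPM, rested on 2 UMIs. The r values of these 2 genes therefore rest on few UMIs. *Osmr*, from 3.34 to 11.7 CPM in the collagen-rich clusters, and *Clcf1*, from 4.23 to 11.5, were also near the 5 CPM added. The macrophage-like cluster, which is among the points, held at most 8 UMIs of any member in a library. Each r thus includes points that rest on few UMIs.

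Within collagen-rich cells most receptor chains were higher in Nuc1. *Il6st* was 1.76-fold higher (log2 ratio 0.82, interval 0.71 to 0.93), *Lifr* 2.28-fold (1.19, 0.70 to 1.68), *Osmr* 1.49-fold (0.58, 0.28 to 0.88) and *Cntfr* 1.47-fold (0.55, 0.38 to 0.73). *Il11ra1* was lower, at 0.707 of its WT level (log2 ratio -0.50, -0.57 to -0.43). The ligand *Clcf1* had a log2 ratio of 0.06 (-0.21 to 0.33), and *Cntf*, at 47 and 58 UMIs, one of 0.66 (0.08 to 1.25). Among 8 members that reached 20 UMIs, *Lifr* alone (1 of 8) was past 2-fold, while 12% of the 12384 genes with as many UMIs were past 2-fold either way. The median log2 ratio was 0.62 over the members and 0.03 over all these genes.

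The collagen-rich clusters took unequal shares of the libraries: the cluster led by *Inmt* and *Cyp26b1* held 54 WT and 367 Nuc1 cells, and the one led by *Actg2* and *Penk* 581 and 215. Within clusters, *Il6st* was higher in Nuc1 in 5 of 5 (log2 ratios from 0.17 in the dividing cells to 0.84) and the interval left out 0 in 4. *Il11ra1* was lower in 5 of 5 (from -0.52 to -0.11), with the interval leaving out 0 in 4. *Lifr* and *Cntfr* were higher in 5 of 5, with intervals leaving out 0 in 2 each, and *Osmr* was higher in 4 of 5, with none. The share of all genes that agree over the clusters in this way was not computed. All 5 clusters come from the same 2 libraries. With the 5 clusters weighted equally, the log2 ratio was 0.58 for *Il6st*, 1.12 for *Lifr*, 0.41 for *Osmr*, 0.31 for *Cntfr* and -0.34 for *Il11ra1*. The summed level of the fibroblast markers was 11556 CPM in WT and 7547 in Nuc1 collagen-rich cells, with 9 of 9 present in both, and that of the mural markers 1992 and 900.2, with 6 and 7 of 8 present and *Kcnj8* at 0 in both. Their part in these ratios was not tested.

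**Figure D3:**
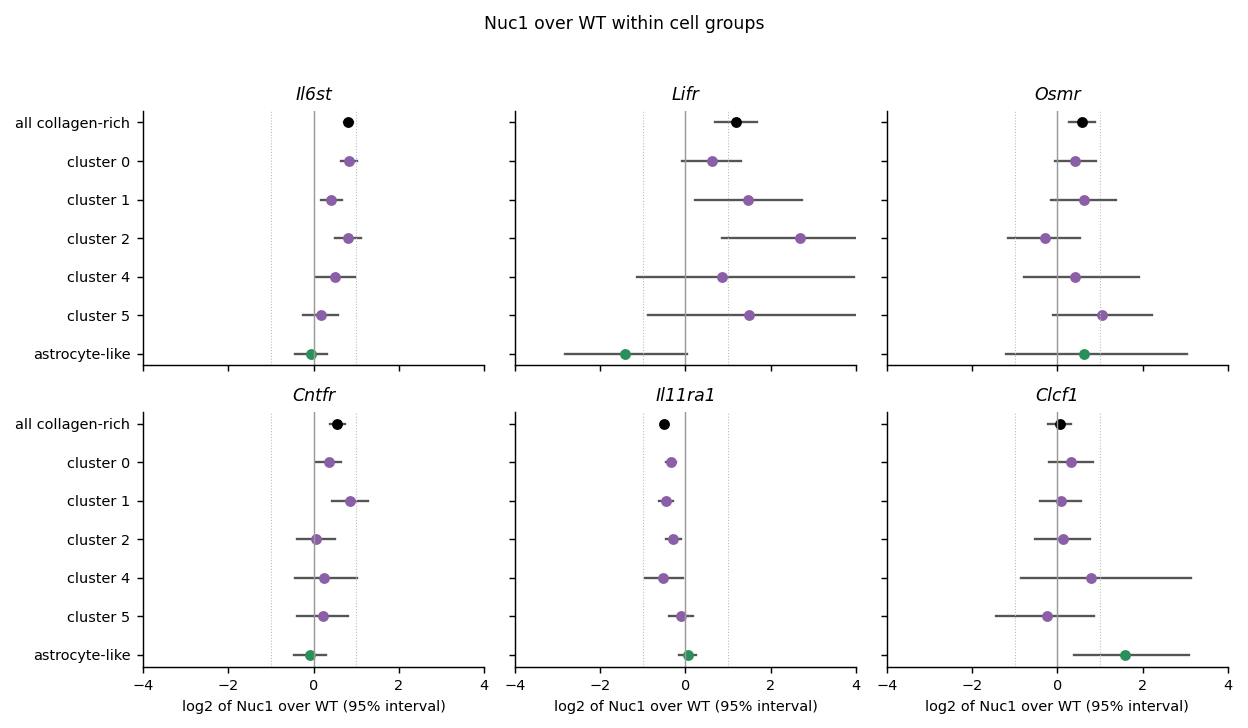
Log2 of the Nuc1 over the WT level (horizontal axis, limited to -4 to 4, dotted lines at 2-fold) of 5 receptor chains and *Clcf1* in all collagen-rich cells (black), in each of the 5 collagen-rich clusters by number (purple; cluster 5 is the dividing cells) and in astrocyte-like cells (green), with 95% exact conditional intervals that run on past the limits where cut. *Il6st* lies above 0 and *Il11ra1* below 0 in all 5 clusters, while both lie near 0 in astrocyte-like cells.

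In astrocyte-like cells the intervals of the abundant receptor chains included 0. On the log2 scale, Nuc1 over WT came to -0.07 for *Il6st* (interval -0.44 to 0.31), -0.09 for *Cntfr* (-0.46 to 0.29) and 0.05 for *Il11ra1* (-0.15 to 0.26). *Cntf* was lower in Nuc1, at 0.756 of the WT level (log2 ratio -0.40, -0.59 to -0.22). The neighbouring gene *Zfp91* was lower there too, at 206.3 CPM in WT and 147.5 in Nuc1. The median log2 ratio over all genes in this group was -0.12. With cells of at most 10% mitochondrial UMIs the log2 ratio of *Cntf* was 0.029 (-0.29 to 0.36). These cells, 39 WT and 186 Nuc1, were clustered anew. Of these, 16 WT and 148 Nuc1 cells were astrocyte-like before, while 11 and 16 came from the *Ttr* and *Gldn* cluster, 10 and 5 were oligodendrocyte-like and 0 and 14 ciliated. With the cell groups kept as they were, the same limit left 17 and 149 astrocyte-like cells and gave a log2 ratio of -0.42 (-0.83 to 0.02). The median mitochondrial share of astrocyte-like cells was 12.9% in WT and 10.96% in Nuc1, and the summed level of the markers of dividing cells 285.8 and 50.1 CPM, with 6 of 6 present in both. Their part in the difference was not tested.

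*Clcf1* was higher in Nuc1 astrocyte-like cells (6 and 59 UMIs, log2 ratio 1.59, 0.38 to 3.09), and *Lifr* had a log2 ratio of -1.42 on 9 and 11 UMIs (-2.83 to 0.03). These were the 2 of 7 members past 2-fold, beside 11.4% of 10668 genes. The fibroblast markers summed to 610.9 CPM in WT and 517.6 in Nuc1 astrocyte-like cells, with 9 of 9 present in both. In ciliated cells *Il11ra1* was 2.49-fold higher in Nuc1 (9 and 112 UMIs, log2 ratio 1.32, 0.34 to 2.48), 1 of 3 members past 2-fold beside 12.4% of all genes there. The WT group had 14 cells.

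Counted the other way, a member was at least 2-fold higher in a single cell group than in the next for 0 of 8 members in WT, where 28.7% of genes were, and for 2 of 8 in Nuc1, where 30.8% were. The 2 were *Lifr* in collagen-rich cells, over a group with 1 UMI, and *Cntfr* in oligodendrocyte-like cells, on 7 UMIs. *Cntf* is not among them because astrocyte-like cells and the *Ttr* and *Gldn* cluster shared its high level.

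The other ligands of the pathway came from a fixed list of 26 genes, of which 25 are in the files and 20 had at least 20 UMIs. *Il6*, the namesake of the family, differed most between the libraries: 115 UMIs in 70 WT cells and 1 UMI in Nuc1. Collagen-rich cells held 100 and 1 of them (3.43 and 0.0440 CPM, log2 ratio -6.28, interval -11.6 to -3.77). In WT it was present in all 5 collagen-rich clusters, from 2.05 to 5.29 CPM, and highest in the *Ttr* and *Gldn* cluster at 25.6 CPM, where 12 UMIs came from 4 cells. In astrocyte-like cells 1 UMI was found in WT and 0 in Nuc1.

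**Figure D4:**
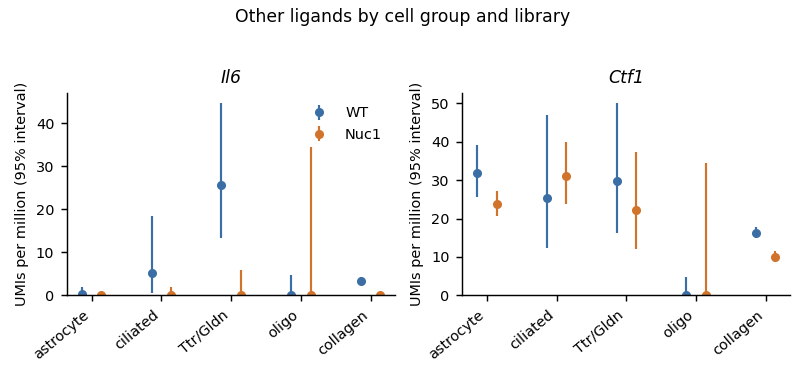
CPM (vertical axis, from 0, on a different scale in each panel) of *Il6* and *Ctf1* in 5 cell groups (horizontal axis), with WT in blue, Nuc1 in orange and 95% exact Poisson intervals. *Il6* has UMIs in WT groups and 1 UMI in Nuc1, and *Ctf1* stands at 31.9 in WT and 23.7 in Nuc1 astrocyte-like cells.

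*Ctf1*, cardiotrophin 1, stood at 31.9 CPM in WT and 23.7 in Nuc1 astrocyte-like cells, at 25.5 and 31.1 in ciliated cells and at 16.3 and 10.0 in collagen-rich cells, where the log2 ratio was -0.70 (-0.93 to -0.47). *Il11* had 38 and 52 UMIs, *Ebi3* 45 and 29, and *Osm* 5 and 1, 3 of them in WT macrophage-like cells. *Il27* and *Il31ra* had 0 in both, *Lep* 1 in Nuc1 and *Il27ra* 7 in each library.

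Of the 20 listed genes measured in collagen-rich cells, 3 were past 2-fold, beside 12% of all genes there: *Lepr*, the leptin receptor, was higher in Nuc1 (75.1 and 159.1 CPM, log2 ratio 1.08, 1.01 to 1.16), and *Il6* and *Socs3* were lower. With the clusters weighted equally the log2 ratio of *Lepr* was 0.65, no longer past 2-fold, and its interval left out 0 in 2 of 5 clusters. *Socs3*, the feedback inhibitor that binds gp130, had 7.75 CPM in WT and 3.57 in Nuc1 (log2 ratio -1.12, -1.50 to -0.75), and *Cish*, another inhibitor, 26.1 and 14.6 (-0.84, -1.03 to -0.65). The kinase gene *Jak1* (72.0 and 117.9 CPM, 0.71, 0.63 to 0.80) and the phosphatase gene *Ptpn1* (56.7 and 106.5 CPM, log2 ratio 0.91) were higher, and *Stat3* differed less (131.7 and 147.8 CPM, 0.17, 0.10 to 0.23). The list's median log2 ratio was -0.01, beside 0.03 over all genes.

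In astrocyte-like cells 3 of 17 listed genes were past 2-fold, 1 lower and 2 higher in Nuc1, beside 11.4% of all genes there. *Socs3* was lower in Nuc1 (33 and 16 UMIs, 11.7 and 1.74 CPM, log2 ratio -2.75, -3.71 to -1.85), and *Lepr* was higher (3.55 and 11.1 CPM, 1.64, 0.71 to 2.75). These *Lepr* levels were 4.72% and 6.96% of the collagen-rich ones, beside 4.63% and 5.50% for *Col1a1*. The part of RNA from collagen-rich cells in them was not tested. *Stat3* had 134.4 and 140.9 CPM (0.07, -0.10 to 0.24) and *Ptpn1* 36.9 and 37.7 (0.03, -0.29 to 0.36). The list's median log2 ratio there was -0.03 and that of all genes -0.12. In ciliated cells 2 of 11 listed genes were past 2-fold, beside 12.4% of all genes there. *Ptpn1* had 13 and 131 UMIs (log2 ratio 1.01, 0.19 to 1.96), and *Jak2* 4 and 41 (1.04), with an interval that included 0 (-0.43 to 2.98).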

How the data were processed

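Per the labels, 3′ libraries were made from optic nerve cells, grown as mixed primary cultures per the study's methods, and the submitters' processing notes name Cell Ranger 3.1.0, STAR 2.7 and Seurat 3.1.0 and 3.1.1. The authors deposited raw counts of UMIs per gene and barcode, 34517542 in 2107 WT and 35794685 in 1929 Nuc1 barcodes. The genome build is not given in the sources used here. A barcode was kept from 500 genes upward if mitochondrial UMIs made up no more than 20%, and doublets called by Scrublet (scanpy 1.11.5; 5 WT, 11 Nuc1) left out, fewer than the 2% rate set. Libraries were integrated and clustered with Seurat 5.3.0 in R 4.3.3 (2000 variable genes without the members, 30 components, resolution 0.5). A cluster was named from at least 3 markers among its 10 leading genes, or called collagen-rich above 2000 CPM of *Col1a1*, a limit set after seeing the data. Intervals are 95% exact Poisson, Clopper-Pearson or conditional, and a sum of 0 allows 3 counts. The conditional intervals of ratios were tested on group sums simulated from the Poisson model that they assume, which holds no added spread between cells. The other intervals were not simulated. No p-value was computed. Named genes are the members, the listed pathway genes with at least 20 UMIs (values for ligands and receptors) and the 3 genes most like each member with at least 100 UMIs. *Zfp91*, listed ligands and receptors under 20 UMIs, and the kinase, STAT, phosphatase and inhibitor genes given with values were chosen after their values were seen. Values of some genes that these rules name are not reported here. The members and lists were chosen with earlier results of these data known. Alternatives were other cell filters, doublet calls, clustering settings, no clustering, edgeR 4.0.16 TMM or median scaling, thinning, and leaving out cells rich in fibroblast markers or with male UMIs. Promoter sequences are from RefSeq, GRCr8.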

Additional observations from a re-analysis of the deposited data

Results flagged for a closer look

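For 2 members the ratio of Nuc1 over WT had opposite signs in different cell groups, each with an interval that left out 0. The share of all genes that show this was not computed. *Il11ra1* had a log2 ratio of -0.50 in collagen-rich cells and -0.55 in the *Ttr* and *Gldn* cluster but 1.32 in ciliated cells, where WT had 9 UMIs. *Cntf* had a log2 ratio of -0.40 in astrocyte-like cells and 0.66 in collagen-rich cells, on 47 and 58 UMIs. *Gfap* in collagen-rich cells was 6.58 CPM in WT and 29.6 in Nuc1, and its bearing on *Cntf* there was not tested. With 1 library per genotype, the difference was tested for neither member.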

How the results depend on the processing

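No paired analysis was possible because only 1 library was made of each genotype. Leaving out a replicate was not possible either. The log2 ratio of *Cntf* in astrocyte-like over collagen-rich cells ran from 6.04 to 6.27 in WT and from 5.02 to 5.31 in Nuc1 over 12 alternatives each. Of 390 alternative CPM values, 369 lay within the interval of the main value, and of 320 alternative ratios of Nuc1 over WT, 310 did. Of 18 alternative shares of cells, which change with the depth of thinning, 17 moved and 1 did not. The ratio of *Cntf* in astrocyte-like cells reversed, to 0.029, at a limit of 10% mitochondrial UMIs, and was below 0 in the other 15. These include the same limit with the cell groups kept (-0.42), added after seeing the data. Weighting the collagen-rich clusters equally, an alternative chosen after seeing the data, moved the log2 ratio of *Il6st* to 0.58, of *Il11ra1* to -0.34 and of *Lepr* to 0.65. Of the members past 2-fold in astrocyte-like cells, 2 in the main setting, 1 remained in number at 10% mitochondrial UMIs, 1 without cells rich in fibroblast markers, 1 with Nuc1 cells lacking male UMIs, and 0 after thinning to 10000 UMIs. The share of astrocyte-like cells with *Cntf* was 43.9% in Nuc1 at 10000 UMIs, and 73.1% in WT and 65.7% in Nuc1 with no thinning. In the *Ttr* and *Gldn* cluster *Cntf* in WT was 50.9 CPM without cells rich in fibroblast markers, which left 8 cells. Clustered anew at 10% mitochondrial UMIs, ciliated, oligodendrocyte-like and *Ttr* and *Gldn* cells joined the astrocyte-like ones, and at resolution 0.2 the ciliated cells did. The causes of the other changes were not tested.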
